A study of Mus musculus with 16 samples.

Results

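The 100 microarray features described here were chosen for standing highest in the corpus callosum of mice returned to regular diet after cuprizone (CPZ). CPZ is a compound that binds copper and is mixed into chow to damage the cells that make myelin. The corpus callosum, a large white matter tract, loses its sheaths during feeding and regains them once plain chow is given. For each feature, the lowest of the 6 regular-diet arrays minus the highest of the other 10 arrays gave a gap on the log2 scale of the deposited processed table, and the 100 features with the largest gap among the 27451 that carried a gene symbol were taken. They covered 97 genes. Slc26a6, Sirt7 and Tmem268 had 2 features each. Because the choice used these values, every comparison of regular diet with the other arrays is given below as a description, with no test.

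RNA came from corpus callosum of male mice, stated in the study's methods to be wild-type C57BL/6. The untreated group (3 arrays) was kept on normal diet, and the other groups received 0.2 to 0.4% CPZ, as labelled, in powdered chow for 2 weeks (3 arrays), for 4 weeks (4 arrays), or for 4 weeks followed by regular diet (6 arrays). The study's methods give a short and a long time on regular diet, and the labels leave the 6 arrays undivided, so the group is taken to hold both times, with no array assigned to either, and its SD covers both. The study's methods count mice per condition, in numbers like those of the arrays, but no source used here says that each array was a separate mouse. If not, p-values measure only the spread between arrays. Levels in the processed table were log2 values relative to the median of the 3 untreated arrays. An array measures RNA of the whole piece of tissue, so fewer cells of a type and less RNA per cell cannot be told apart.

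The sources disagree on which array is which. Of the 16 scanner files, 14 hold the signals of a processed-table column labelled as another sample than the one recorded for the file, and 13 of another group. The gaps rest on the table's column labels, and the background flags and the CPZ tests on scanner files assigned through those columns. With the recorded assignment, 13 of all named features had every regular-diet array above the others, none of them among the members, which were chosen under the table's labels, and 0 features were called with limma in any CPZ contrast (an unadjusted p under 0.05 in 327, 776 and 616 features). The running number of each scanner file equalled the number of its column for 16 of 16. The median of 18 oligodendrocyte genes, from the scanner signals relative to the untreated arrays, lay between -4.63 and -1.62 on the 7 arrays of the CPZ groups by the table's labels, all below the untreated arrays (-0.65 to 0.38). By the recorded assignment it lay between -1.46 and 2.37, against -1.20 to 2.37 in untreated arrays, so the groups overlapped.

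Myelin genes were detected in the labelled tissue. Of 7 oligodendrocyte markers (Mbp, Mog, Mag, Mobp, Cnp, Mal and Cldn11), 6 were well above background, by the scanner software's own flag, on all 16 arrays, and Mog was so on 15. All 18 cortical neuron genes were so on all 16 arrays as well, against 14 of the 18 genes of a longer oligodendrocyte list. Detection alone therefore did not identify the tissue. The share of features well above background was 57.3% to 71.0% on the other 10 arrays and 64.9% to 72.2% on the regular-diet arrays. Regular-diet arrays 1 and 2 stood apart from arrays 3 to 6. Over the 27451 named features, arrays 1 and 2 correlated with each other at a Pearson r of 0.91, against 0.44 to 0.61 with the other 4. Arrays 3 to 6 were not one set either: they correlated with each other at 0.42 to 0.69, and array 3 at 0.61 and 0.60 with arrays 1 and 2 but 0.42 with array 6. The points share arrays, scaling and the untreated reference. The median of 17 microglial markers was 4.05 and 4.42 on arrays 1 and 2 and between 1.22 and 1.76 on arrays 3 to 6. Values of arrays 1 and 2 are therefore given apart for the members in which they stood out, and the main counts, differences of medians over the members and lower bounds also without them. Myelin genes divided the 6 arrays elsewhere. The median of 18 oligodendrocyte genes was -3.41, -3.20 and -2.75 on arrays 1, 2 and 3 and -0.07, -0.08 and 0.52 on arrays 4, 5 and 6, and that of 22 genes of cholesterol synthesis was -1.30, -1.28 and -1.05, then -0.09, -0.02 and 0.18. Array 3 thus lay with arrays 1 and 2 for myelin genes and with arrays 4 to 6 for microglial markers. No array was assigned a time on regular diet from these values.

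When myelin breaks down, microglia and macrophages engulf the debris, digest it in acidified lysosomes, and divide. Afterwards oligodendrocyte precursors mature and wrap axons again. Genes of phagocytes, lysosomes and division are therefore among the transcripts followed in this model. The gene at the head of the ranking, Ms4a7, encodes a four-span membrane protein of macrophages. Csf3r encodes the receptor for granulocyte colony-stimulating factor, and Tcirg1 a membrane subunit of the proton pump that acidifies lysosomes and osteoclast pits. Their promoters are shown because Ms4a7 had the largest difference of the members and the other 2 are described with all their values below. Each window runs from 250 bases before to 50 bases after the gene start in RefSeq (build GRCm38.p6), 5′ to 3′ on the gene's strand, with GAGGAA or its reverse complement TTCCTC, a purine-rich core bound by ETS factors such as PU.1 of myeloid cells, in capitals. Ms4a7 lies at chr19:11336097-11336396 (minus strand), Csf3r at chr4:126024409-126024708 (plus strand) and Tcirg1 at chr19:3907084-3907383 (minus strand). Where RefSeq listed several starts, the one listed first was used.
Ms4a7: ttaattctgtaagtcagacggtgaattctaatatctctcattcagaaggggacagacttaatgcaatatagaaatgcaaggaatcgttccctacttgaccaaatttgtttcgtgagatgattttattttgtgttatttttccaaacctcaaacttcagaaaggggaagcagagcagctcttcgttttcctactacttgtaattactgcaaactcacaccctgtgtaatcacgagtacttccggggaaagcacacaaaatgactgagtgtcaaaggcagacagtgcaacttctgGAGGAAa
Csf3r: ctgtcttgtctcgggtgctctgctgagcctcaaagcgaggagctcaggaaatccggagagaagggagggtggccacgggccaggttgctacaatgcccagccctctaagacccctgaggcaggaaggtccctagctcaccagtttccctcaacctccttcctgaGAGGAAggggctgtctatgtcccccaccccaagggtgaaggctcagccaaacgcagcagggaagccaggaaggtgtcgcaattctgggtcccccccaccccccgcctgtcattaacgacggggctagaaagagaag
Tcirg1: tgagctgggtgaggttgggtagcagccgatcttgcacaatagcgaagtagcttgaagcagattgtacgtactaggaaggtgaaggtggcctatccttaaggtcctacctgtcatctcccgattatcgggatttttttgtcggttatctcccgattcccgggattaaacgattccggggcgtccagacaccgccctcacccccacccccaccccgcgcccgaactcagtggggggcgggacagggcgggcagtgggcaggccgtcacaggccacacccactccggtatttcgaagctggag
The core occurred 1 time in the Ms4a7 window, 1 time in the Csf3r window and not in this Tcirg1 window. Over first-listed windows, 28.3% of 27025 genes held it, and 24 of the 84 member genes with a window did (28.6%), so the members' share was near that of all genes. The E-box CACGTG, which reads the same on both strands, was in 4 of the 84 member windows (4.76%) and in 7.24% of all windows. These are letter matches in one window per gene and say nothing of binding.

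The members' name did not hold for most of them. Only 7 of the 100, and the same 7 among all 27451 named features (0.0255%), had every regular-diet array above every other array. These 7 were Ms4a7 (gap 0.17), Accs (0.08), Gm11696 (0.06), Casp12 (0.04), Slc26a6 (0.02), Stk38 (0.02) and Pign (0.01). Since the rule chose on the gap itself, the count is a description. In the other 93 members the groups overlapped, by up to 0.18. The count of 7 depended on single arrays: it was 14 without 2-week array 1, 11 without 2-week array 3, 11 without regular-diet array 3 and 13 without regular-diet array 5. Without regular-diet arrays 1 and 2 together it was 10. Over all named features the corresponding counts were 27, 15, 27, 16 and 21, so other features separated as well, and without 4-week array 3 there were 9 members among 21 features. One of the other 10 arrays reached the lowest regular-diet array in 21 members, 2 or 3 did in 41, and 4 to 7 did in 31. The edge of the list was not a step: rank 99 (Pmm2) and rank 100 (Pfas) both had a gap of -0.18, as did rank 101 (Fancg) and rank 102 (Snap29), which lay just outside. The members are therefore called by their rule, the features with the largest gap, and not by exclusive expression.

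**Figure D1:**
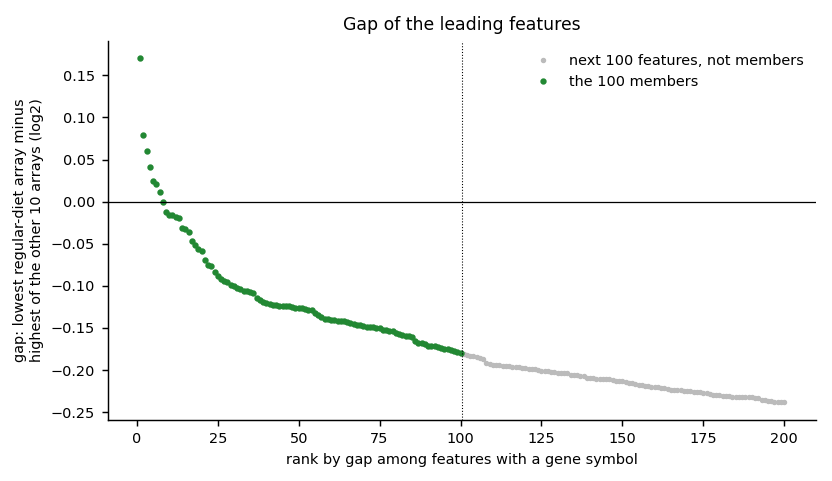
Gap (log2, vertical axis) against rank (horizontal axis) for the 200 leading features with a gene symbol, with the 100 members in green and the next features in grey. A gap above 0 means that all 6 regular-diet arrays lay above the other 10, and 7 points do so, after which the curve declines without a break past rank 100.

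Most members differed little in size. The median of the regular-diet arrays minus the median of the other 10 ranged from -0.02 to 3.18 on the log2 scale, with a median over the members of 0.27, against -0.09 over all named features. It was under 0.5 in 77 members and at least 1 in 6. Without regular-diet arrays 1 and 2 the range was -0.02 to 2.76 and the median 0.24, with 80 members under 0.5 and 4 at 1 or more. The 6 over all arrays were Ms4a7, Itgal, Atp6v0d2, Gas2l3, Iqgap3 and Plk4. Plk4 was well above background on no array and Atp6v0d2 on 1 regular-diet array only, so their differences have no reliable level. Itgal was so on 2 of the other 10 arrays, Gas2l3 on 6 and Iqgap3 on 7, so their differences are uncertain in size. Across the named features, 331 had a difference of at least 1, and 516 did without regular-diet arrays 1 and 2. A list of 100 chosen by the difference over all arrays shared 3 features with the members. A small spread marked the members instead. The range over the other 10 arrays had a median of 0.74 in the members and 1.27 over all named features, and the range over the 6 regular-diet arrays had a median of 0.50 and 0.80. A gap near 0 needs narrow ranges, so this narrowness comes with the rule.

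Ms4a7 had by far the largest difference. The untreated arrays were at 0.27, 0.00 and -0.29, those of 2 weeks of CPZ at 1.60, 0.07 and 0.44, and those of 4 weeks at 1.68, 0.81, 2.17 and 1.94. On regular diet the lowest was 2.34, the median 3.81 and the highest 4.95. All 6 regular-diet arrays lay above the 4-week arrays, whose mean was 1.65 ± 0.59 (SD, n = 4), and their own mean was 3.74 ± 0.91 (SD, n = 6). Arrays 1, 2 and 3 were at 4.17, 4.95 and 4.22 and arrays 4, 5 and 6 at 3.32, 3.45 and 2.34, so each of arrays 3 to 6 also lay above the highest other array (2.17). A second Ms4a7 feature, not among the 100, ranged from 3.06 to 6.04 on regular diet with a highest other value of 3.30, a gap of -0.24 and a difference of medians of 3.11.

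Accs, which encodes a protein resembling the plant enzyme that makes the ethylene precursor, had the second largest gap. Untreated tissue gave 0.00, -0.02 and 0.02, 2 weeks of CPZ gave 0.08, -0.58 and 0.21, and 4 weeks gave 0.35, 0.07, 0.34 and 0.19. The regular-diet values ran from 0.43 through a median of 0.48 to 1.99. Arrays 1 and 2 were at 1.68 and 1.99 and the other 4 at 0.43 to 0.51, little above the highest other array (0.35).

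Casp12, an inflammatory caspase associated with the endoplasmic reticulum, had a tight regular-diet group. The untreated values were 0.00, 0.04 and -0.78, those at 2 weeks 0.51, -1.54 and -0.46, and those at 4 weeks 0.16, -0.03, -0.02 and -0.59. Regular diet gave 0.55 to 0.81 with a median of 0.72, and arrays 1 and 2 lay within that range. The feature was well above background on all 6 regular-diet arrays and on 6 of the other 10, so its low values are uncertain, and it did not pass the filter for the CPZ tests.

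Slc26a6, an anion exchanger for chloride, bicarbonate and oxalate, was the only gene of the 7 with 2 members. The first feature was at 0.00, -0.06 and 0.24 in untreated arrays, at 0.06, 0.17 and 0.12 at 2 weeks, and at -0.21, -0.31, -0.35 and -0.09 at 4 weeks. On regular diet it was between 0.27 and 0.42 (median 0.36). The second feature reached 0.00 to 0.31 on regular diet (median 0.08) and overlapped the other arrays by 0.03. Both features were lowest at 4 weeks and highest on regular diet, by medians that differed by 0.62 and 0.31.

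The other 3 members without overlap had small differences. Stk38, a kinase of the NDR family that regulates cell shape and division, was at 0.65 on both of regular-diet arrays 1 and 2 and at 0.13 to 0.27 on arrays 3 to 6, against a highest other value of 0.11. Pign, an enzyme of glycosylphosphatidylinositol anchor synthesis, was at 0.78 and 1.15 on arrays 1 and 2 and at 0.25 to 0.45 on arrays 3 to 6, against 0.23. Gm11696, a predicted gene, was at 0.39 and 0.83 on arrays 1 and 2 and at 0.22 to 0.34 on arrays 3 to 6, against 0.16. In each of the 3, the highest regular-diet array exceeded the lowest by more than the gap itself.

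**Figure D2:**
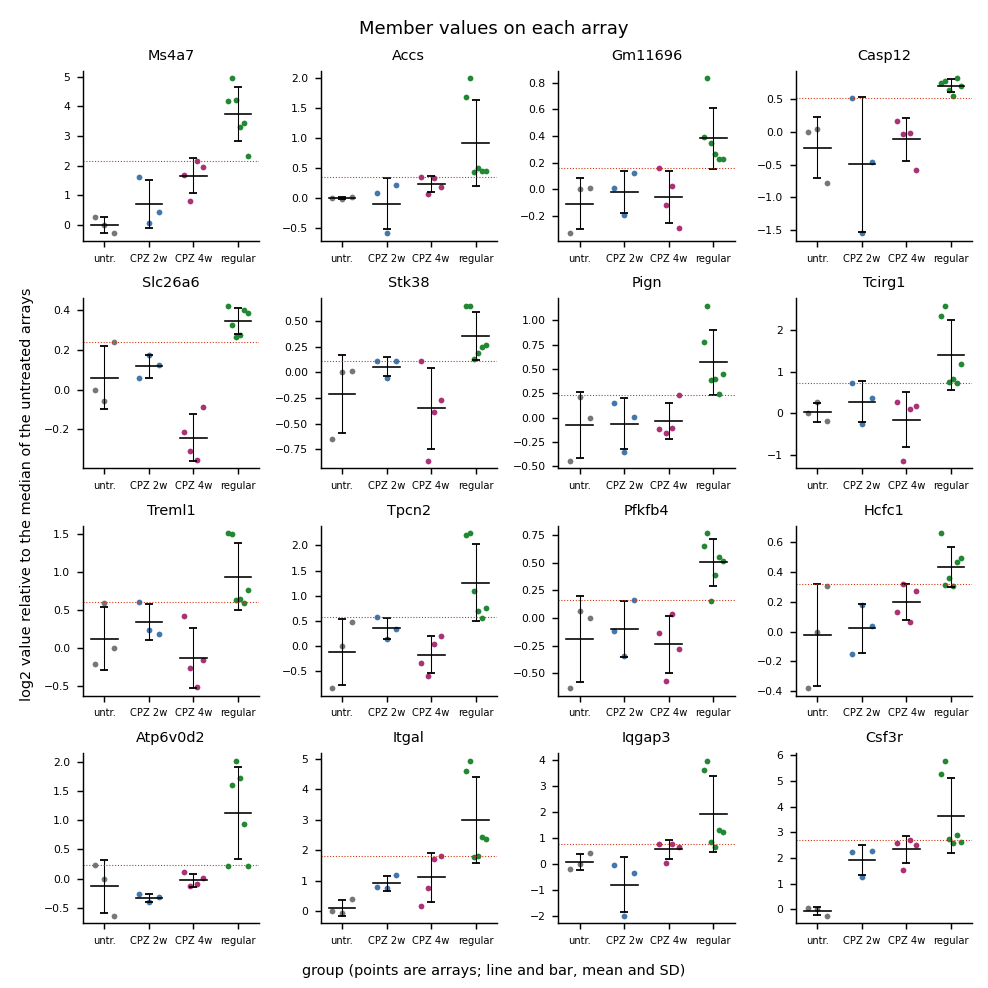
Values of 16 members on each array (log2, relative to the median of the untreated arrays), by group: untreated, 2 and 4 weeks of CPZ, and regular diet after CPZ, with arrays in replicate order from left to right; the line and bar are mean and SD, and the red dotted line is the highest of the other 10 arrays. The first 12 panels are the members with the largest gap well above background on all 6 regular-diet arrays, and the last 4 were added after their values were seen. In Tcirg1, Tpcn2, Itgal, Iqgap3 and Csf3r the 2 leftmost regular-diet points, arrays 1 and 2, lie far above the other 4.

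In the other named members, at least 1 of the other 10 arrays reached the lowest regular-diet array. Tcirg1 was at 0.00, 0.27 and -0.18 in untreated arrays, 0.73, -0.25 and 0.36 at 2 weeks and 0.26, -1.14, 0.10 and 0.17 at 4 weeks, and ran from 0.73 through 1.00 to 2.59 on regular diet. Tpcn2, a cation channel of endosomes and lysosomes, ran from 0.56 through 0.92 to 2.24 on regular diet, with a highest other value of 0.57. Treml1, a receptor best known from platelets, ran from 0.60 through 0.71 to 1.51, against 0.61. In these 3, arrays 1 and 2 gave the highest values. Arrays 3 to 6 ranged from 0.73 to 1.18 in Tcirg1 and from 0.60 to 0.76 in Treml1, and in Tpcn2 arrays 4 to 6 ranged from 0.56 to 0.75 with array 3 above them. Pfkfb4, which sets the level of a potent activator of glycolysis, was at 0.65 and 0.77 on arrays 1 and 2 and at 0.15 to 0.55 on the other 4, against 0.17. Hcfc1, a chromatin-bound transcriptional coregulator, ran from 0.30 through 0.41 to 0.66 against 0.32. Sirt7, a nucleolar deacylase, had a regular-diet median of 0.02 in both of its features. Untreated array 1 was at -0.88 and -0.99 and untreated arrays 2 and 3 between 0.00 and 0.12, while the medians at 4 weeks of CPZ were -0.70 and -0.69, within the untreated range. Tmem268, a membrane protein of little-known function, had regular-diet medians of 0.21 and 0.35 in its 2 features.

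The 6 regular-diet arrays did not contribute evenly. Array 2 was the highest of the 6 in 55 members, although it was highest in 29.9% of all named features. Array 6 was highest in 16, array 1 in 10, arrays 3 and 4 in 7 each, and array 5 in 5. The lowest of the 6, which sets the gap, was array 5 in 30 members, array 3 in 25, array 4 in 20, array 6 in 15, array 1 in 8 and array 2 in 2. Arrays 1 and 2 both exceeded arrays 3 to 6 in 45 members, and by at least 1 on the log2 scale in 13, compared with 28.5% and 4.04% of all named features. Those 13 were Accs, Tcirg1, Tpcn2, Itgal, Eya4, Gas2l3, Iqgap3, Acox3, Csf3r, Fgd2, Mfng, Stat6 and Entpd1. They were singled out after their values were seen.

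Per array, the median over the 100 members was 0.39 and 0.48 on regular-diet arrays 1 and 2 and between 0.20 and 0.28 on arrays 3 to 6. On the other 10 arrays it lay between -0.12 and 0.04. The highest of the other 10 arrays, the second value that sets the gap, was an untreated array in 36 members, a 2-week array in 34 and a 4-week array in 30. No single CPZ group therefore bounded the members from below.

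**Figure D3:**
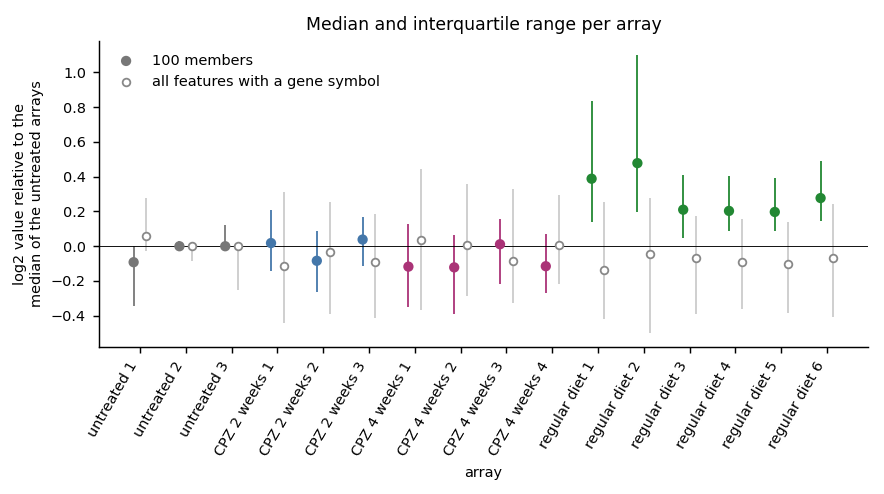
Median (point) and interquartile range (line) of the 100 members, coloured by group, and of all features with a gene symbol, in grey, on each of the 16 arrays (log2, relative to the median of the untreated arrays). The members' medians are 0.20 to 0.48 on regular diet and -0.12 to 0.04 elsewhere, as the rule that chose them requires, with arrays 1 and 2 highest.

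The arrays sat on 4 slides with 4 arrays each, and every slide held regular-diet arrays and others. Within a slide, the regular-diet arrays lay above all other arrays of that slide in 65, 75, 62 and 77 members on slides 1 to 4. Over all named features the share was 13.5%, 8.70%, 11.8% and 17.5%. The members' median difference within a slide, regular diet minus the rest, was 0.29, 0.47, 0.38 and 0.35. The rule took features with high regular-diet values over all arrays, so much of this separation follows from it. The part of the slides in the values was not tested.

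Genes with roles in phagocytes and other leukocytes included Ms4a7, Itgal and Csf3r. The grouping by role was made from known functions after the members were known, so its counts are descriptions. The group held 9 members (Ms4a7, Itgal, Csf3r, Treml1, Entpd1, Stat6, Fgd2, Tnip2 and Casp12). Their differences of medians were 0.32 to 3.18 with a median of 0.75, and in 5 of them arrays 1 and 2 exceeded the other 4 by at least 1. Casp12, whose difference is that median, was well above background on 6 of the other 10 arrays. Itgal was so on 2 and Csf3r on 7, so the differences of all 3 are uncertain. Itgal, the alpha chain of the leukocyte integrin LFA-1, was at 0.00, -0.07 and 0.40 in untreated arrays, 0.80, 0.76 and 1.20 at 2 weeks, and 0.17, 0.75, 1.72 and 1.82 at 4 weeks. Its regular-diet values were 4.62 and 4.94 on arrays 1 and 2 and 1.77 to 2.44 on arrays 3 to 6, which adjoined 2 of the 4-week arrays. It was well above background on 2 of the other 10 arrays and on none of the untreated or 2-week arrays, so regular diet was at least 2.86-fold higher than untreated and at least 3.25-fold higher than 2 weeks. Without arrays 1 and 2 these bounds fell to 1.55-fold and 1.76-fold. These bounds set the mean on regular diet against the dimmest reliable signal of each array. Another feature named Itgal, matched through a different transcript accession, had a difference of medians of -0.02, so the 2 features disagree.

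Csf3r separated untreated tissue from every CPZ group. Untreated arrays were at 0.04, 0.00 and -0.25, 2-week arrays at 2.23, 1.26 and 2.27, and 4-week arrays at 2.59, 1.53, 2.70 and 2.50. On regular diet arrays 1 and 2 were at 5.25 and 5.78 and arrays 3 to 6 between 2.57 and 2.87, level with 3 of the 4-week arrays and above 4-week array 2. No untreated array was well above background, and regular diet was at least 11.1-fold higher than untreated, or at least 5.81-fold without arrays 1 and 2. Fgd2, which activates the small GTPase Cdc42 in myeloid cells, was at 2.74 and 3.12 on arrays 1 and 2 and at 0.44 to 1.02 on arrays 3 to 6, with a highest other value of 0.57. Entpd1, the ectonucleotidase CD39, was at 2.16 and 2.42 on arrays 1 and 2 and at 0.63 to 0.96 on arrays 3 to 6, with a highest other value of 0.79. Stat6, the transcription factor downstream of interleukin 4, was at 2.10 and 2.20, then at 0.48 to 0.54, with all of arrays 3 to 6 under the highest other value of 0.64.

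Lysosomal and endosomal genes numbered 5: Tcirg1, Tpcn2, Atp6v0d2, Ctns and Ap5m1. In the 4 other than Atp6v0d2, differences of medians ran from 0.17 to 0.86. Atp6v0d2, a proton-pump subunit found in osteoclasts and macrophages, was well above background on 1 of the 16 arrays, so neither a fold nor an order of arrays is given. Efcab11 and Plk4 were well above background on none of the 16, which leaves their differences (0.99 and 1.07) without a reliable level. Of all members, 97 were well above background on the 6 regular-diet arrays and 87 on all 16.

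Genes of mitosis, cytokinesis, DNA replication and repair contributed 12 members. Their differences of medians were 0.09 to 1.28 with a median of 0.26, close to the 0.27 of all members. These values include Plk4, which had no reliable level. In 2 of the 12, arrays 1 and 2 exceeded the other 4 by at least 1. Gas2l3, a linker of actin and microtubules in dividing cells, was at 3.34 and 3.24 on arrays 1 and 2 and at 1.00 to 1.76 on arrays 3 to 6. Iqgap3, a scaffold protein of proliferating cells, was at 3.60 and 3.96 against 0.66 to 1.30. In both, 2 or 3 of the other 10 arrays reached the lowest regular-diet value. Gas2l3 was well above background on 6 of the other 10 arrays and Iqgap3 on 7, so their low values are uncertain. A list of 19 other cell-cycle genes, among them Mki67 and Top2a, held no member, and its median was 1.72 and 1.93 on arrays 1 and 2 and between -0.15 and 0.31 on arrays 3 to 6. Chromatin and transcription gave 14 members of 13 genes, with differences of 0.02 to 0.65 and a median of 0.18. Metabolic enzymes gave 11, with differences of 0.04 to 0.66 and a median of 0.27. The genes placed in any role group numbered 52 of 97.

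None of the 97 genes belonged to any of 30 prepared lists of cell types and pathways. The lists held 1535 genes on the array, 1037 of them olfactory and vomeronasal receptors, where 18745 genes were named. They covered a small share of the genes, so the absence of members is given as a description. The 17 genes of disease-associated microglia on the array, such as Apoe, Spp1 and Gpnmb, came closest in role to the phagocyte members, and the largest gap among them was -0.33, for Csf1. Their median was 4.80 and 5.05 on regular-diet arrays 1 and 2, 1.29 to 2.07 on arrays 3 to 6 and 1.13 to 2.70 at 4 weeks of CPZ. The medians of 12 T and B cell markers were -0.09 to 0.76 on regular diet and -0.20 to 0.45 elsewhere, and 2 of the 12 were above background nowhere. Choroid plexus markers ranged from -2.35 to 2.95 across regular-diet arrays and from -1.64 to 3.15 across the others, and the 18 cortical neuron markers from -1.10 to -0.03 and from -1.08 to 0.69. The part of these cell types in the members' values was not tested.

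Other features of the same genes bear on the members without having been chosen. There were 67 such features, for 48 of the genes. None had every regular-diet array above the other 10, beside the 0.0255% of all named features that did. The difference of medians was above 0 in 51 of the 67 (76.1%), against 36.9% of all named features, and its median was 0.13. They share RNA and arrays with the members and are given with no test. Of the 67, 48 were well above background on all 16 arrays. Gas2l3 (1.23 in the other feature, 1.28 in the member) and Ms4a7 kept their difference. Eya4, a transcriptional coactivator with phosphatase activity (0.16 and 0.65), and Hcfc1 (0.06 and -0.08 in 2 other features, 0.32 in the member) did not. The Gas2l3 and Eya4 members were well above background on 6 and 7 of the other 10 arrays, so their differences are uncertain in size. The other features of Gas2l3 and Ms4a7 were so on 13 and 12 of the 16 arrays. The other Tpcn2 feature (0.07, against 0.84 in the member) was well above background on 7 of the 16 arrays, so the 2 are not compared.

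The scaling of the arrays decided which members kept a gap above 0. With the scanner's processed signals scaled to each array's 75th percentile, 7 members had a gap above 0, with quantile normalization 4, with median scaling 3 and with normexp background correction 4. None of the 12 members with a gap above 0 in at least 1 of the 5 scalings had it in all, and Stk38 and Tcirg1 had it in 4. The gap of Ms4a7 was 0.17 in the processed table and 0.21 at the 75th percentile but -0.30, -0.46 and -0.16 in the other 3. The scalings also moved all named features, whose median difference was -0.09 in the processed table, -0.07 with quantile normalization, -0.23 with median scaling and -0.19 with normexp. Relative to these, the members' median difference was 0.37, 0.31, 0.39 and 0.30.

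**Figure D4:**
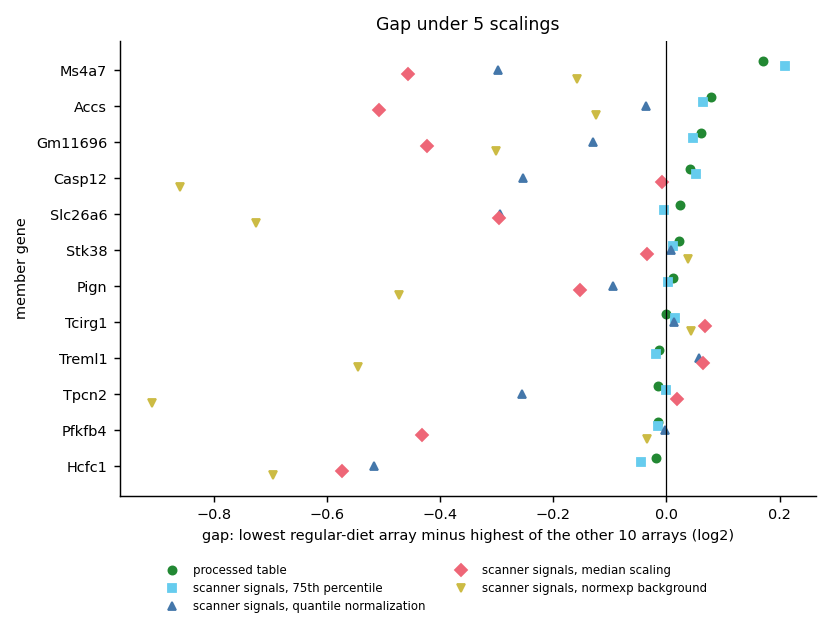
Gap (log2, horizontal axis) of the 12 members with the largest gap well above background on all 6 regular-diet arrays, under 5 scalings of the same arrays (symbols), with a line at 0. The processed table and the 75th percentile lie close together, while Ms4a7, Accs, Gm11696, Casp12, Slc26a6 and Pign fall below 0 under the other 3.

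The CPZ groups and the untreated group took no part on the regular-diet side of the gap, and their contrasts were tested with limma on the 10 arrays of these 3 groups. Of the 100 members, 94 passed the filter for these tests, and Casp12, Itgal and Atp6v0d2 were among the 6 that did not. A call required a Benjamini-Hochberg adjusted p under 0.05 over all 27495 features tested and at least a 2-fold change. At 2 weeks against untreated, 0 of 94 members were called, where 0.222% of all features were. At 4 weeks against untreated, 1 was (0.189% of all), and at 4 against 2 weeks 0 were (0.0109% of all). An unadjusted limma p under 0.05 was found in 4, 6 and 14 members, against 9.63%, 10.2% and 10.4% of all features. The contrasts share arrays, and the highest of these 10 arrays was part of the rule, which shapes the members' ranges among them, so nothing about the members is read from these counts.

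Csf3r was the called member. It was well above background on all 7 arrays of the CPZ groups and on no untreated array, so it passed the filter only through the groups in which it was high, and the call supports nothing beyond the values themselves. It was at least 4.47-fold higher at 4 weeks than in untreated tissue (limma adjusted p = 0.045) and at least 3.40-fold higher at 2 weeks (limma adjusted p = 0.066). The fitted log2 differences, 2.37 and 1.97, rest on untreated signals that were not above background. The limma adjusted p at 4 weeks moved between 0.015 and 0.978 over the alternatives, the latter with the recorded assignment of scanner files, where the change was 0.60. Quantile normalization, no filter, the replicate block, all 4 groups and the methods' test each ended the call, with adjusted p from 0.059 to 0.293, as did normexp, where the change was 0.34 (limma adjusted p = 0.776), and Csf3r did not pass the filter on all 10 arrays. With slide as a fixed block the limma adjusted p was 0.019, under the same limit. Without 4-week array 2, the change at 2 weeks was called as well (limma adjusted p = 0.044). Leaving out any of untreated arrays 1, 2 and 3, 2-week arrays 1 and 3, or 4-week arrays 1, 3 and 4 ended the call at 4 weeks, with limma adjusted p from 0.059 to 0.214.

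No other member was called. Ms4a7 was 1.63 higher (log2, SE 0.41) at 4 weeks than in untreated tissue and 0.70 higher (SE 0.44) at 2 weeks, with limma adjusted p of 0.144 and 0.792. Entpd1 was 0.55 higher (SE 0.16) at 4 weeks, with a limma adjusted p of 0.218. Over the 94 members the median log2 change was 0.02 at 2 weeks and -0.13 at 4 weeks, beside 0.02 and -0.06 over all features, and 29 of 94 had a positive change at 4 weeks, as did 43.8% of all features. Of the 17 disease-associated microglial genes tested in the same fit, 2 were called higher at 2 weeks and 3 at 4 weeks, beside 0.222% and 0.189% of all features, with median changes of 1.17 and 2.07. With limma and the replicate block, 0 features were called in either contrast (an unadjusted p under 0.05 in 1944 and 1776). The same held for the methods' variance analysis (1604 and 1686) and for limma on the recorded assignment (327 and 776). The variance analysis was run on the 10 arrays with the filter used here. The paper's own test also covered the regular-diet conditions, and it reported differentially expressed genes at both times. These 0 calls are therefore no repeat of it.

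**Figure D5:**
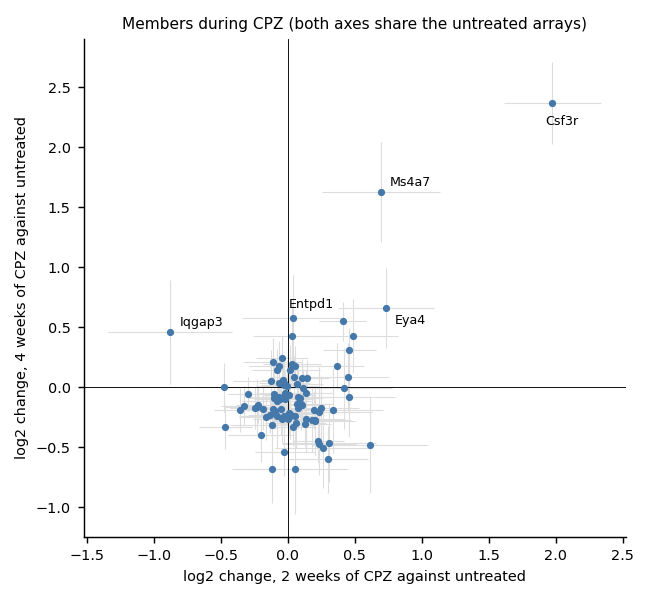
Log2 change of the 94 tested members at 2 weeks (horizontal axis) and 4 weeks (vertical axis) of CPZ against untreated, with bars of 1 SE from the limma fit. Both axes use the same 3 untreated arrays, so the points share their error; Csf3r (1.97 and 2.37) and Ms4a7 (0.70 and 1.63) lie apart, and most members lie near 0.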

How the data were processed

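RNA from corpus callosum was hybridised to 1-colour Agilent 4x44K mouse arrays. The authors deposited scanner files of Feature Extraction 11.0.1.1, whose processed signal is an intensity, and a processed table of log2 values; the methods name GeneSpring and scaling to the 75th percentile. For 100% of features, the median of the 3 untreated columns was 0, within 1e-06. Each column matched 1 scanner file (Pearson r at least 0.9993 over 22031 features, next best at most 0.881), and 14 of 16 of those files are recorded under another sample, 13 under another group. Scanner files were therefore assigned by this match, with the recorded assignment as an alternative; if the table's own column labels were wrong, every group would be.

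Groups came from the labels. Gene symbols were matched through transcript accessions to RefSeq tables: 27471 of 41174 features had 1 symbol, none had several and 13703 had none. The gap was computed in the processed table. The members and the gene lists were chosen with earlier results of these data known. Named members were the 12 with the largest gap well above background on all 6 regular-diet arrays, the 5 with the largest gap, members of a list (up to 10), members called during CPZ (up to 5) and genes with 2 features (up to 4).

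For CPZ, log2 of the deposited intensity minus each array's 75th percentile was fitted with limma 3.58.1 in R 4.3.3, on 10 arrays and the 27495 features that all arrays of some group showed well above background. Spots marked as outliers (48 to 126 per array) were left out. The number of arrays limits the precision. The fit was tested on simulated data. Alternatives were other scalings, filters, blocks, the methods' variance analysis on the 10 arrays and leaving out arrays. The variance analysis kept the filter used here. Normexp was planned on the mean signal and was run on the median signal in its place, with an offset of 50. Leaving out regular-diet arrays 1 and 2 together, and the 3 arrays with the lowest share of features above background, was chosen after seeing the data, as were the bounds without arrays 1 and 2 and the myelin genes by assignment.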

Additional observations from a re-analysis of the deposited data

Results flagged for a closer look

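Of 36 sets of values tested, the named members at 4 weeks of CPZ and on regular diet, 6 held an array whose distance to its nearest neighbour was large for the set's range, a rule that chance meets in about 1 of 20 sets. On regular diet, array 2 was far above the rest for Gm11696 (0.83, the others 0.22 to 0.39) and for both Sirt7 features (0.24 with the others between -0.02 and 0.04, and 0.29 with the others between -0.03 and 0.05). At 4 weeks, array 2 was far below the rest for Tcirg1 (-1.14, the others 0.10 to 0.26) and Csf3r (1.53, the others 2.50 to 2.70). For Pign, 4-week array 4 was far above the rest (0.23, the others -0.16 to -0.11). All values are log2, relative to the median of the untreated arrays. These arrays had 64.9% (regular-diet array 2), 60.3% (4-week array 2) and 64.6% (4-week array 4) of features well above background, and the part of this in the values was not tested.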

How the results depend on the processing

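For members with every regular-diet array above the others, the count of 7 became 4 with quantile normalization, 3 with median scaling, 4 with normexp, 0 with the recorded assignment of scanner files and 12 without the 3 arrays of lowest share above background; leaving out single arrays gave 7 to 14. The list of 100 shared 8, 28, 42 and 0 features under the first 4 of these settings, 30 without the 3 arrays, 60 without regular-diet arrays 1 and 2, and 3 when chosen by the difference of medians, and between 48 and 100 when 1 array was left out. Other features of the same genes with every regular-diet array above the rest numbered 0, then 1 without the 3 arrays and 0 to 2 without single arrays. The members' median gap, -0.13, was -0.17 with quantile normalization, -0.21 with normexp, -0.53 with median scaling and -1.09 with the recorded assignment. Without single arrays it was between -0.13 and -0.12. The named members' median gap, -0.01, was -0.12 with quantile normalization, -0.36 with median scaling, -0.33 with normexp and -1.54 with the recorded assignment. Without single arrays it was -0.01 to 0.02.

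Gaps above 0 turned below 0 as follows. At the 75th percentile of scanner signals, Slc26a6 fell to -0.0036. With quantile normalization, Ms4a7 was at -0.30, Accs at -0.036, Gm11696 at -0.13, Casp12 at -0.25, Slc26a6 at -0.295 and Pign at -0.094. With median scaling, Ms4a7 was at -0.46, Accs at -0.51, Gm11696 at -0.42, Casp12 at -0.0083, Slc26a6 at -0.296, Stk38 at -0.035 and Pign at -0.15. With normexp, Ms4a7 was at -0.16, Accs at -0.13, Gm11696 at -0.30, Casp12 at -0.86, Slc26a6 at -0.72 and Pign at -0.47. With the recorded assignment, Ms4a7 was at -4.83, Accs at -2.52, Gm11696 at -1.09, Casp12 at -2.33, Slc26a6 at -0.72, Stk38 at -1.50 and Pign at -1.45.

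The 1 member called at 4 weeks of CPZ, Csf3r, and with it the count of 1 over named members, became 0 with quantile normalization, normexp, no filter, the filter on all 10 arrays, the replicate block, all 4 groups on 16 arrays, the recorded assignment and the methods' test (variance analysis with Tukey contrasts); without single arrays the count was 0 or 1. With slide as a random block 1 member was called at 2 weeks (Csf3r), which made 2 calls over named members. Without single arrays, members called at 2 weeks numbered 0 or 1, calls over named members 0 to 2, and members called at 4 against 2 weeks 0.

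Over all features, the 61 calls at 2 weeks became 29 with median scaling, 97 with normexp, 109 with the filter on all 10 arrays, 107 with slide as a fixed and 375 as a random block, 0 with the replicate block, 32 with all 4 groups, and 0 with the recorded assignment and the methods' test, and 7 to 91 without single arrays. The 52 calls at 4 weeks became 20 with quantile normalization, 27 with no filter, 112 with the filter on all 10 arrays, 478 and 447 with slide as a fixed and a random block, 0 with the replicate block, 4 with all 4 groups, 0 with the recorded assignment and the methods' test, and 0 to 205 without single arrays. The 3 calls at 4 against 2 weeks became 5 with median scaling and with no filter, 53 with all 4 groups, and 0 with normexp, the filter on all 10 arrays, slide as a fixed block, the replicate block, the recorded assignment and the methods' test, and 0 to 50 without single arrays. Same-numbered arrays deviated together in 3 of 9 pairs (r above 0.1, range -0.81 to 0.20), so the numbers did not pair the arrays. Some arrays of different numbers deviated together more. Untreated array 1 had r of 0.74 and 0.78 with 4-week arrays 2 and 3, and -0.84 with 4-week array 4. Untreated array 1 and 4-week arrays 2 and 3 had the lowest shares of features above background (57.3%, 60.3% and 59.2%). The cause of these shared deviations, and of the differences between settings, was not tested.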
